A study of Homo sapiens with 15 samples.

Results

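The genes described here encode enzymes of ceramide synthesis and the enzyme that turns ceramide into glucosylceramide. The rule that chose them is a list of gene symbols and uses no measured value. Of the 10 symbols in the rule, 8 were found among the 17687 genes measured (SPTLC1, SPTLC2, DEGS1, CERS2, CERS4, CERS5, CERS6 and UGCG), each by 1 probe set. SPTLC3 and CERS1 are not analysed here.

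The arrays were hybridised with RNA from C42B, a human prostate cancer cell line derived from LNCaP that grows without androgen supply, and 15 arrays were made in all, 6 h after treatment. The groups were 10 µM enzalutamide with 15 µM PF-543 (3 arrays), 10 µM enzalutamide with 15 µM ABC294640 (3 arrays), 10 µM enzalutamide (2 arrays), 15 µM PF-543 (3 arrays), 15 µM ABC294640 (1 array) and the vehicle, 0.125% DMSO (3 arrays). Enzalutamide blocks the androgen receptor, PF-543 inhibits sphingosine kinase 1, and ABC294640 (opaganib) inhibits sphingosine kinase 2. All groups came from 1 cell line, and the labels do not say whether arrays of a group came from separate cultures, and the spread that the p-values rest on may therefore be technical. RNA of many cells was measured together, so a loss of some of the cells and less RNA per cell cannot be told apart.

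Ceramide is the hub of sphingolipid metabolism. In the endoplasmic reticulum, serine palmitoyltransferase joins serine to palmitoyl-CoA, ceramide synthases attach a fatty acyl chain to the product after its reduction, and a desaturase then converts dihydroceramide to ceramide. Ceramide is built into sphingomyelin and glycosphingolipids or broken down to sphingosine, which the sphingosine kinases phosphorylate. Ceramide is known for promoting growth arrest and cell death, and sphingosine 1-phosphate for promoting survival. ABC294640 has also been reported to act on the desaturase DEGS1. The arrays measured mRNA, and neither lipids nor enzyme activities were measured.

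The 12 arrays of treated cells and the 3 DMSO arrays separated. Along principal component 1 over all genes, with 15.3% of the variance, the treated arrays lay between -11.6 and 0, and the DMSO arrays between 18.9 and 24.8. Comparisons with DMSO are therefore set beside ones that use no DMSO array. Of 10 markers of luminal prostate cells, 9 were measured, at log2 8.84 to 16.23 on all arrays (KLK3, KLK2, FOLH1, HOXB13, FOXA1, TMPRSS2, EPCAM, KRT8 and KRT18). The basal keratins KRT5 and KRT14 lay between 3.65 and 4.78, where the first quartile of an array's signal was 4.57 to 4.69. The 4 fibroblast markers ranged widely, from 3.26 to 9.62. They averaged 6.05 to 6.29 per treated array and 6.4 to 6.6 per DMSO array, and their part in the comparisons with DMSO was not tested. Leukocyte markers lay between 5.03 and 7.1 and endothelial markers between 3.53 and 6.97, with averages that overlapped between treated and DMSO arrays.

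None of the 8 genes passed the test in any comparison. In limma fitted over all genes, with Benjamini-Hochberg adjustment and a threshold of 0.05, 0 of 8 differed among the 6 groups (F test), where 0.78% of all genes did. In 15 comparisons of group means, 0 of 120 tests of these genes passed, and the smallest adjusted p was 0.121. At an unadjusted p under 0.05 there were 12 of 120, of which UGCG gave 6, CERS4 3, CERS2 2 and SPTLC1 1. These comparisons share arrays, so the 12 are not separate observations. That share is close to the background, since 10.4% of the tests of all genes in these comparisons reached the unadjusted threshold. The adjusted threshold was passed by 2.02% of all genes for enzalutamide with PF-543 against DMSO, by 0.701% for enzalutamide with ABC294640 against DMSO, by 0.565% for PF-543 against DMSO and by 0.311% for enzalutamide against DMSO.

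The group means of CERS4 and UGCG spanned 0.66 and 0.56 log2 units, above the median of 0.36 over all genes, and those of the other genes spanned 0.15 (CERS6) to 0.35 (CERS2). The lowest means of CERS4 and CERS2, 7.46 and 13.09, were each the single ABC294640 array. Over the other groups the CERS4 means ran only from 7.79 (DMSO) to 8.12 (enzalutamide alone). The SD within groups was 0.06 for CERS6 and 0.24 for UGCG, with the other genes between them, and its median over all genes was 0.18. Outside the interaction terms, the 95% intervals of SPTLC1, SPTLC2, DEGS1, CERS2, CERS4, CERS5 and CERS6 stayed within log2 -0.74 and 0.80 in all 13 comparisons, so a 2-fold change (log2 1) of these mRNAs lay outside them. For UGCG the interval reached 1.09 with the single ABC294640 array and 0.94 elsewhere. The plot of every array's value shows these spreads side by side.

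**Figure D1:**
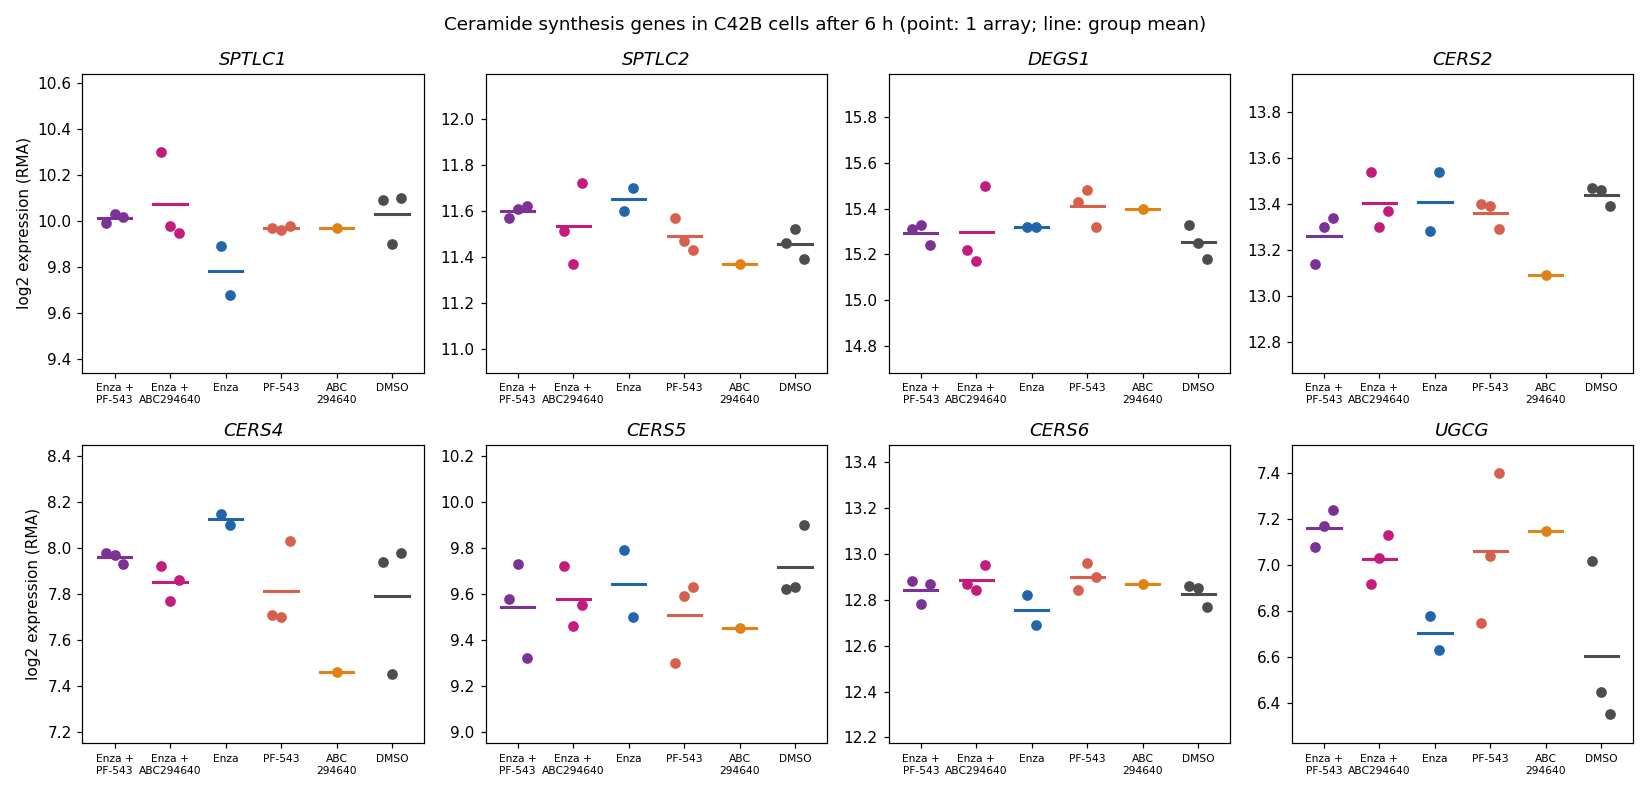
log2 expression (RMA, y axis, the same span of 1.3 log2 units in each panel) of the 8 measured genes in the 6 groups (x axis; Enza, enzalutamide). Each point is 1 array and each line a group mean. The UGCG points of both combinations lie above those of enzalutamide alone, and CERS6 varies least, between 12.69 and 12.96 over all arrays.

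UGCG, UDP-glucose ceramide glucosyltransferase, makes glucosylceramide, the first step of most glycosphingolipids and a route that removes ceramide. Its RefSeq promoter is shown because it was the gene with the smallest p among the 8. Printed are the 250 bases before the annotated start site, at chr9:111896564-111896813 of GRCh38.p14, plus strand, with matches to the SP1 GC box GGGCGG on either strand in capitals.
UGCG: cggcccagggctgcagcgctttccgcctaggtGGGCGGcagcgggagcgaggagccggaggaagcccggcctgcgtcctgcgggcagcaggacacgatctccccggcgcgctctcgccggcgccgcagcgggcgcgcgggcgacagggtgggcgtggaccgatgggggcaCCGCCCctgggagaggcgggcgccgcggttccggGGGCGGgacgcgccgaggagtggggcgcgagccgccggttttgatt

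This window was 78.4% G and C and held 3 GC boxes, of the kind bound by the transcription factor SP1. Promoters were found for 6 of the 8 genes, with 7 windows in all since a gene can have more than 1 start site. A GC box stood in at least 1 window of each of the 6 genes (6 of 7 windows), as it did in 42.6% of 35116 RefSeq promoters. A CCAAT box, bound by NF-Y, stood in those of CERS6 and SPTLC2, and in 32.0% of all promoters. The E-box CACGTG, the sterol regulatory element TCACNCCAC and the ATF4 element TGATGNAAN were in 0 of the 7 windows, and in 6.34%, 0.883% and 3.13% of all promoters. Both strands were searched, and no searched motif contains another. A match is a string of letters in this window and was not tested as a binding site.

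UGCG had a higher mean with a sphingosine kinase inhibitor than without one, both with and without enzalutamide, but no difference passed the threshold. Its log2 values were 7.08, 7.17 and 7.24 with enzalutamide and PF-543, and 6.92, 7.03 and 7.13 with enzalutamide and ABC294640, against 6.63 and 6.78 with enzalutamide alone. All 6 combination arrays thus lay above both enzalutamide arrays. Without enzalutamide, the values were 6.75, 7.04 and 7.40 with PF-543 and 7.15 on the ABC294640 array, against 6.35, 6.45 and 7.02 with DMSO. Here PF-543 and DMSO overlapped, since DMSO replicate 1 lay close to the treated arrays and PF-543 replicate 1 lay below it.

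In order of group means, UGCG was highest with enzalutamide and PF-543, at 7.16 ± 0.08 (SD, n = 3), followed by the ABC294640 array at 7.15 and PF-543 at 7.06 ± 0.33 (n = 3). Enzalutamide with ABC294640 came next at 7.03 ± 0.11 (n = 3), then enzalutamide alone at 6.70 ± 0.11 (n = 2) and DMSO at 6.61 ± 0.36 (n = 3). Of neighbours in that order, enzalutamide with ABC294640 and enzalutamide alone had arrays that did not overlap, and the other neighbours overlapped. The share of all genes with that gap is not given here. In the like-sized comparison of enzalutamide alone with DMSO, arrays of 28.1% of all genes did not overlap. That share counts both directions and involves the DMSO arrays, so it does not stand for this gap. The groups without an inhibitor made up the low end of this order, but UGCG did not pass the F test over the 6 groups.

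Averaged over cells with and without enzalutamide, the UGCG difference for PF-543 was log2 0.46 (SE 0.13, 95% CI 0.17 to 0.75, limma unadjusted p = 0.00466, adjusted p = 0.156), which did not pass. At the adjusted threshold 0.351% of all genes passed in that comparison. The difference was log2 0.46 (SE 0.18, adjusted p = 0.248) against DMSO and log2 0.46 (SE 0.20, adjusted p = 0.6) on top of enzalutamide, where no DMSO array enters and 0.0283% of genes passed. Leaving out 1 array moved the first of these to between log2 0.29 (without PF-543 replicate 3) and 0.66 (without DMSO replicate 1), and the second to between 0.38 and 0.53. The difference between the effects with and without enzalutamide was log2 0.00 (95% CI -0.58 to 0.58), so unequal responses within that interval remain compatible with these values. The plot of all genes for the PF-543 effect places UGCG among the higher genes, below those with the smallest p.

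**Figure D2:**
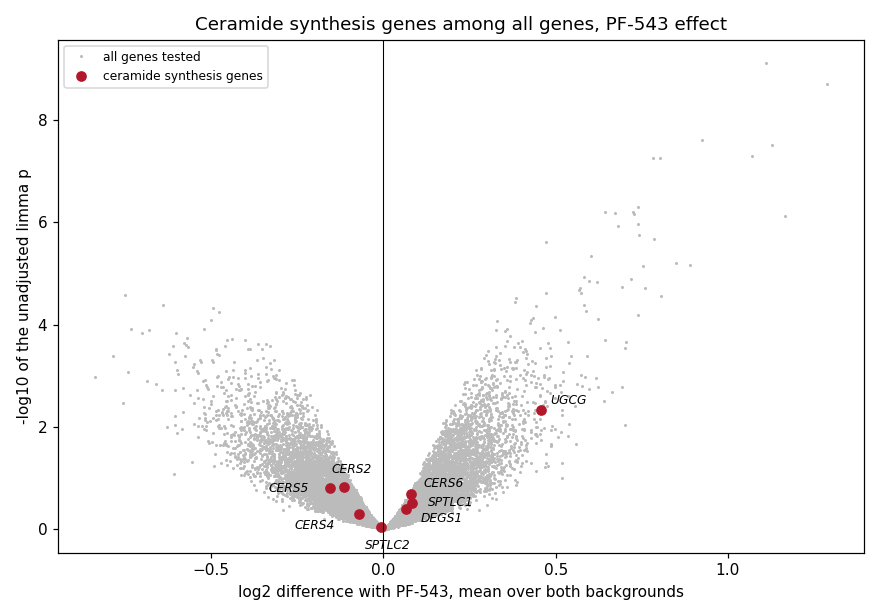
Effect of PF-543 averaged over cells with and without enzalutamide: log2 difference (x axis) against -log10 of the unadjusted limma p (y axis). Grey points are all 17687 genes and red points the 8 measured ceramide synthesis genes. UGCG stands at log2 0.46, and the other red points lie between -0.16 and 0.08.

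For ABC294640 the UGCG differences were less certain, since 1 of the arms was a single array. Averaged over both backgrounds the difference was log2 0.43 (SE 0.16, 95% CI 0.08 to 0.78, limma adjusted p = 0.471). On top of enzalutamide it was log2 0.32 (95% CI -0.11 to 0.75, adjusted p = 0.82), and against DMSO it was log2 0.54 (95% CI -0.00 to 1.09, adjusted p = 0.525). In each of these ABC294640 comparisons 0% of all genes passed. Set directly against each other at 15 µM with 10 µM enzalutamide, PF-543 and ABC294640 differed in UGCG by log2 0.14 (95% CI -0.25 to 0.52, adjusted p = 0.907).

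Against DMSO, enzalutamide with PF-543 had UGCG higher by log2 0.56 (SE 0.18, limma adjusted p = 0.121), with all 3 arrays above all 3 DMSO arrays, as was so for 12.1% of all genes. Enzalutamide with ABC294640 had it higher by log2 0.42 (SE 0.18, adjusted p = 0.275), with an overlap. Both moved with the DMSO arrays. Without DMSO replicate 3 they were log2 0.43 and 0.29, and without DMSO replicate 1 they were log2 0.76 and 0.63. For enzalutamide with PF-543 the adjusted p without DMSO replicate 1 was 0.0442, the only setting tried in which 1 of the 8 genes passed. Enzalutamide alone had UGCG at log2 0.10 relative to DMSO (95% CI -0.33 to 0.53, adjusted p = 0.882).

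Higher in all 6 arrays of the combinations than in both enzalutamide arrays were 2 of the 8 genes, UGCG and SPTLC1, where 4.61% of all genes were so placed. CERS4 was the 1 gene that was lower in all 6, where 3.78% of all genes were. With 2 enzalutamide arrays shared by both combinations, these placements rest on the same pair of values.

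SPTLC1 and SPTLC2 form serine palmitoyltransferase, the first and rate-limiting step of the pathway. SPTLC2 carries the catalytic lysine that binds pyridoxal phosphate, and SPTLC1 is the partner it needs. SPTLC1 was lowest with enzalutamide alone, at 9.89 and 9.68, against 10.09, 9.90 and 10.10 with DMSO. The groups did not overlap, as was so for 28.1% of all genes, and the difference was log2 -0.25 (SE 0.12, limma adjusted p = 0.412). It was log2 -0.14 without enzalutamide replicate 2, the array at 9.68, and log2 -0.35 without replicate 1. With an inhibitor added to enzalutamide its values were 9.99, 10.03 and 10.02 (PF-543) and 10.30, 9.98 and 9.95 (ABC294640), all above enzalutamide alone.

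The SPTLC1 difference was log2 0.23 (SE 0.12, limma adjusted p = 0.692) for PF-543 added to enzalutamide and log2 0.29 (SE 0.12, 95% CI 0.03 to 0.55, adjusted p = 0.685) for ABC294640 added. Without enzalutamide, PF-543 arrays lay at 9.96 to 9.98 and the ABC294640 array at 9.97, within the range of the DMSO arrays. The PF-543 difference was log2 0.12 without enzalutamide replicate 2, and the ABC294640 difference was log2 0.18 without replicate 1 of enzalutamide with ABC294640, the array at 10.30. Without enzalutamide replicate 1 they were log2 0.33 and 0.40.

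SPTLC2 took the opposite place with enzalutamide alone, at 11.60 and 11.70, against 11.46, 11.52 and 11.39 with DMSO (log2 0.19, SE 0.11, 95% CI -0.04 to 0.43, limma adjusted p = 0.482). It lay at 11.57 to 11.62 with enzalutamide and PF-543, at 11.37 to 11.72 with enzalutamide and ABC294640, at 11.43 to 11.57 with PF-543 and at 11.37 on the ABC294640 array. No unadjusted p of SPTLC2 fell below 0.05 in the 15 comparisons.

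The ceramide synthases differ in the acyl chains they attach. CERS2, which prefers very long chains, was lowest on the ABC294640 array, at 13.09, against 13.47, 13.46 and 13.39 with DMSO (log2 -0.35, SE 0.14, 95% CI -0.65 to -0.05, limma adjusted p = 0.467). A single array placed below all 3 DMSO arrays is common, with 28.9% of all genes so placed. With enzalutamide and ABC294640 the values were 13.54, 13.30 and 13.37, within those of enzalutamide alone at 13.28 and 13.54. The low value of the lone array was thus not seen when the same compound was given with enzalutamide (log2 0.31 for the combination over ABC294640, SE 0.14, adjusted p = 0.707, where 0.0792% of genes passed). CERS2 lay at 13.14, 13.30 and 13.34 with enzalutamide and PF-543 and at 13.29 to 13.40 with PF-543. The arrays of enzalutamide with PF-543 were also below all 3 DMSO arrays (log2 -0.18, SE 0.10, 95% CI -0.40 to 0.04, limma adjusted p = 0.358). The share of all genes with that placement is not given here.

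CERS4, a synthase of long-chain ceramides, was highest with enzalutamide alone, at 8.15 and 8.10, against 7.94, 7.45 and 7.98 with DMSO. The groups did not overlap, as was so for 28.1% of all genes and for 3 of the 8 here. The CERS4 difference was log2 0.33 (SE 0.15, 95% CI 0.01 to 0.66, limma adjusted p = 0.377). DMSO replicate 2 was the low array, and without it the difference was log2 0.17. Without DMSO replicate 3 it was log2 0.43. Averaged over its additions to PF-543 and to ABC294640, with no DMSO array involved, the CERS4 difference for enzalutamide was log2 0.27 (SE 0.12, 95% CI 0.01 to 0.52, adjusted p = 0.59), where 0.384% of genes passed. That average gives the single ABC294640 array, at 7.46, the same weight as the 3 PF-543 arrays at 7.71, 7.70 and 8.03.

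For ABC294640 averaged over both backgrounds, the CERS4 difference was log2 -0.30 (SE 0.12, 95% CI -0.57 to -0.04, limma adjusted p = 0.503). The part against DMSO (log2 -0.33) rests on the single ABC294640 array, at 7.46, within the DMSO range of 7.45 to 7.98. Leaving out 1 array moved the average to between log2 -0.39 (without DMSO replicate 2) and -0.25 (without DMSO replicate 3). With enzalutamide and ABC294640 the CERS4 values were 7.92, 7.77 and 7.86, below both enzalutamide arrays. With enzalutamide and PF-543 the CERS4 values were 7.98, 7.97 and 7.93, also below both.

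CERS5 and CERS6 both make ceramides with palmitoyl chains. CERS5 scattered from 9.30 to 9.90 over the arrays, and its groups overlapped in every comparison between groups of 2 or more arrays. Its smallest p was for PF-543 against DMSO (log2 -0.21, SE 0.14, 95% CI -0.51 to 0.09, limma adjusted p = 0.501). That difference was log2 -0.11 without PF-543 replicate 1 and -0.27 without replicate 3. CERS6 was the steadiest of the 8, from 12.69 to 12.96. Its smallest p was for ABC294640 added to enzalutamide (log2 0.13, SE 0.09, 95% CI -0.06 to 0.33, adjusted p = 0.837). That difference was log2 0.07 without enzalutamide replicate 2 and 0.20 without replicate 1.

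DEGS1, the dihydroceramide desaturase, stayed between 15.17 and 15.50 on all arrays. PF-543 gave 15.43, 15.48 and 15.32, against 15.33, 15.25 and 15.18 with DMSO (log2 0.16, SE 0.10, 95% CI -0.06 to 0.37, limma adjusted p = 0.472). The ABC294640 array was at 15.40, and enzalutamide with ABC294640 at 15.22, 15.17 and 15.50, against 15.32 on both enzalutamide arrays. The lone ABC294640 array thus lay above the DMSO arrays, by log2 0.15 over their mean (95% CI -0.15 to 0.45). The share of all genes so placed is not given here. No DEGS1 difference passed the test with the compound reported to act on its enzyme. Its intervals stayed within log2 -0.40 and 0.45 in the 13 comparisons.

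**Figure D3:**
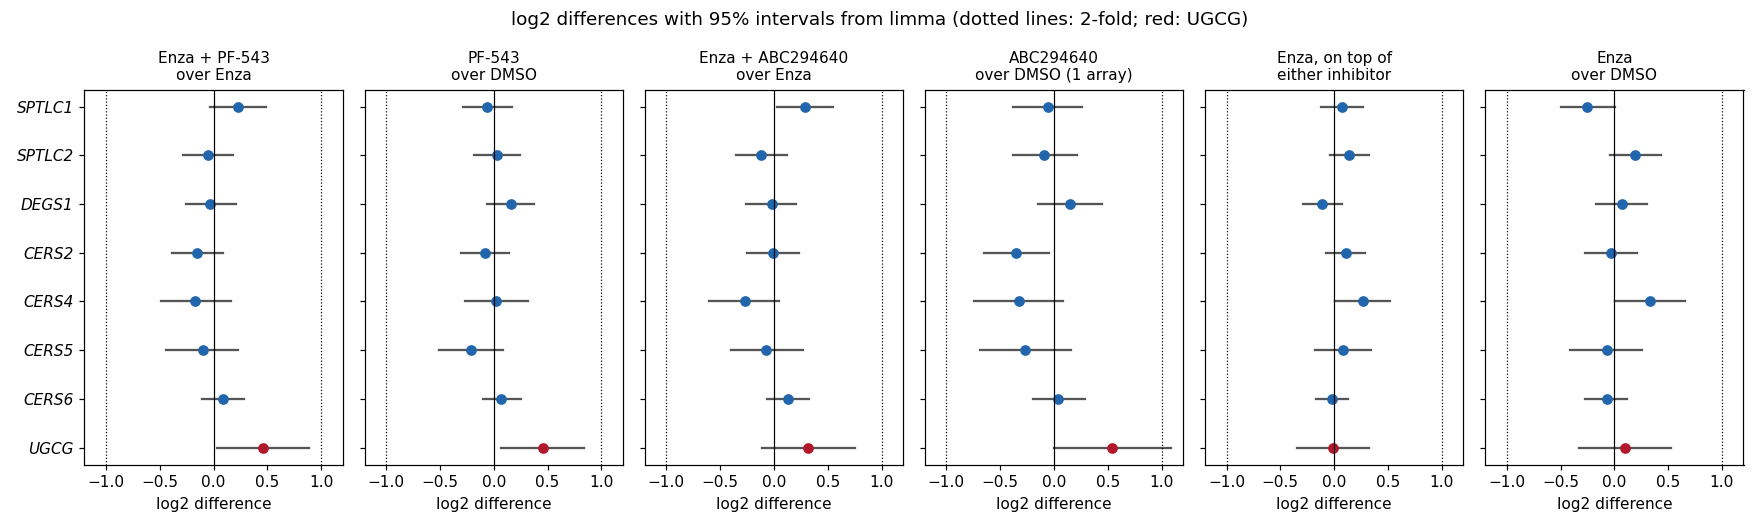
log2 differences (x axis) of the 8 measured genes (rows) in 6 comparisons, each as the first named treatment over the second. Points are limma estimates, bars 95% intervals, and dotted lines mark a 2-fold change. UGCG (red) is right of 0 in the 4 panels of sphingosine kinase inhibitors, and the bars of the other genes stay inside the dotted lines.

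PF-543 and ABC294640 were compared directly only in cells that also received enzalutamide. Over the 8 genes the difference between the combinations ran from log2 -0.14 (CERS2) to 0.14 (UGCG), with limma adjusted p from 0.81 to 0.996, where 0.0961% of all genes passed. The 95% intervals of the 8 lay within log2 -0.36 and 0.52. Enzalutamide added to PF-543 gave differences from log2 -0.12 (DEGS1) to 0.15 (CERS4), with adjusted p of 0.819 or more, where 0.311% of genes passed. Whether an inhibitor's effect differed with enzalutamide was tested by interaction terms, in which 0 of 8 genes passed for either inhibitor (smallest adjusted p 0.647, and 0% of all genes passed).

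Over the 15 comparisons the median difference of the 8 genes ran from log2 -0.07 (ABC294640 against DMSO) to 0.12 (enzalutamide added to ABC294640, with 6 of 8 above 0), where the medians of all genes were -0.01 and 0.01. It was 0.08 for enzalutamide on top of an inhibitor, against 0.01 for all genes. The median difference was log2 0.03 for PF-543 against DMSO, with 5 of 8 above 0, where the median of all genes was -0.01. It was -0.04 for PF-543 added to enzalutamide, -0.01 for ABC294640 added to enzalutamide and 0.02 for enzalutamide against DMSO, where all genes had medians of 0.01, 0.00 and -0.01.

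The genes around this pathway gave few calls. Of 10 measured genes that complete or restrain ceramide synthesis, among them KDSR, the ORMDL proteins and the small serine palmitoyltransferase subunits, 0 passed in any of the 15 comparisons. The smallest p values belonged to RTN4, a reticulon of the endoplasmic reticulum (log2 0.29 for enzalutamide against DMSO, limma adjusted p = 0.224), and to FADS3, a sphingoid base desaturase (log2 -0.27 for enzalutamide on top of an inhibitor, adjusted p = 0.409). Of 22 measured genes that use or release ceramide, 0 passed. SGMS2, a sphingomyelin synthase and so a second consumer of ceramide, was at log2 0.80 for enzalutamide with ABC294640 against DMSO (SE 0.20, adjusted p = 0.0839). It was at log2 0.48 for enzalutamide with PF-543 against DMSO (adjusted p = 0.208) and at 0.13 for ABC294640 added to enzalutamide (adjusted p = 0.953). SAMD8, which makes ceramide phosphoethanolamine, was at log2 0.36 with PF-543 averaged over both backgrounds (adjusted p = 0.145).

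Of 8 measured glycosphingolipid genes that act after UGCG, 0 passed. The smallest p values belonged to B4GALNT1, a ganglioside N-acetylgalactosaminyltransferase (log2 0.38 for enzalutamide with PF-543 over enzalutamide with ABC294640, limma adjusted p = 0.431), and to ST3GAL5, the GM3 synthase (log2 0.37 for enzalutamide on top of an inhibitor, adjusted p = 0.539). Of 5 measured sphingosine 1-phosphate genes 0 passed. SPHK1, which encodes sphingosine kinase 1, stood at log2 -0.57 with PF-543 against DMSO (adjusted p = 0.0636) and at -0.58 on the ABC294640 array (adjusted p = 0.33). In enzalutamide-treated cells it stood at log2 -0.24 with PF-543 and -0.27 with ABC294640 (adjusted p = 0.725 and 0.765). Without enzalutamide replicate 2 these values were -0.13 and -0.16, and without replicate 1 they were -0.35 and -0.38. SGPP1, a sphingosine 1-phosphate phosphatase, was at log2 0.26 with PF-543 over both backgrounds (adjusted p = 0.183).

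The exception was in the supply of acyl chains. Of 7 measured elongases and acyl-CoA enzymes, 1 rose with PF-543, ELOVL6, which elongates palmitoyl-CoA, the acyl substrate of serine palmitoyltransferase. It was higher by log2 0.92 (SE 0.10, limma adjusted p = 0.000705) against DMSO, where 0.362% of all genes rose. The difference was log2 0.80 averaged over both backgrounds (SE 0.07, adjusted p = 0.000143) and 0.68 on top of enzalutamide (SE 0.11, adjusted p = 0.0565). Enzalutamide with PF-543 was higher than DMSO by log2 0.71 (adjusted p = 0.00298), a call that was lost when only the arrays of those groups were fitted (adjusted p = 0.06).

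The genes whose values over all 15 arrays were most like a member's were listed for the members with the smallest F-test p. For UGCG they were POGLUT1 (Pearson r = 0.87), SDC4 (0.86) and RBPJ (0.85). For CERS4 they were SNX14 (0.85), GSN (0.81) and INTS13 (0.80), and for CERS2 COL9A1 (0.88), BRAT1 (0.83) and HYAL2 (0.82). Each is among the highest of 17686 values, over arrays that share groups and normalization, and are given as a description.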

How the data were processed

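The authors deposited log2 expression values per probe set for 15 whole-transcript Affymetrix arrays, made with RMA and Transcriptome Analysis Console 4.02 per the submitters' processing notes. The form of RMA and the build are not stated there. RMA gives arrays nearly the same distribution, which would hide a shift common to most genes, and no probe set was judged against background. Array medians lay between 6.71 and 6.76, and 0 pairs of arrays were identical. The number of arrays limits the precision.

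Of 21448 probe sets, 17709 carried 1 platform symbol, matched to RefSeq by Entrez identifier, and the brightest probe set per gene left 17687 genes. Groups came from the sample titles. Group means were fitted with limma 3.58.1 in R 4.3.3 over all arrays (9 residual and 3.82 prior degrees of freedom), so the lone ABC294640 array is assumed to vary like the others. There were 15 contrasts, with Benjamini-Hochberg adjustment across genes. The replicate numbers did not pair arrays (correlations of deviations -0.037 to 0.072 over 26 same-numbered pairs).

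Each member's difference is given for the contrast with its smallest p, and others were chosen after the values were seen. Pathway genes are named where they passed or had the 2 smallest p of their list, with SPHK1, and more SGMS2 and ELOVL6 contrasts, added. The rule for the members uses no measured value, but they and the lists were proposed with earlier results of these data known. Alternatives were quantile, cyclic loess and median normalization, leaving out the dimmest 25% of genes, all probe sets, a robust trended prior, array weights, only the arrays of a contrast, a replicate block and leaving out each array. Promoters are RefSeq's (GRCh38.p14). Figures used matplotlib 3.10.9 in Python 3.11.15.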

Additional observations from a re-analysis of the deposited data

How the results depend on the processing

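The count of the 8 genes past the threshold was 0 in 372 of 373 recalculations over 16 tests, and leaving out 1 array gave 0 to 1 for enzalutamide with PF-543 against DMSO (UGCG, without DMSO replicate 1). With the replicate number as a block, without the unnumbered ABC294640 array, the count was 0 in the 11 tests that could be fitted, UGCG was at log2 0.44 for PF-543 over both backgrounds (limma adjusted p = 0.225), and no call changed. Of 942 recalculated differences of 40 named gene and comparison pairs, 932 kept direction and side of the threshold. Reversed were UGCG for enzalutamide against DMSO (log2 -0.03 without DMSO replicate 3, and up to 0.31 without other arrays) and SGMS2 for ABC294640 added to enzalutamide (log2 -0.09 without enzalutamide replicate 2, and up to 0.34). UGCG for PF-543 over both backgrounds ranged from log2 0.37 to 0.56 (adjusted p 0.0721 to 0.372). With a robust trended prior SGMS2 (adjusted p = 0.0159), SPHK1 (0.0349) and ELOVL6 on top of enzalutamide (0.00294) passed. SPHK1 (0.0407) and ELOVL6 (0.026) also passed without the dimmest genes, which leaves fewer genes tested, and ELOVL6 with array weights (0.0482). For the other changes the cause was not tested. The F test was not rerun on the arrays of single contrasts. Signal over background was not judged for any probe set. UGCG, at log2 6.35 to 7.40, lay near the array medians of 6.71 to 6.76.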
